A study of Mus musculus with 15 samples.

Results

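Chromatin regulators were examined in brains of homozygous O377 mice. Per the series' title, this mutant line has an altered allele of Crybb2. The genes were taken by the prefix of their symbol, and the prefixes were chosen with earlier results of these data known. The prefixes were Hdac, Kdm, Kmt, Setd, Smarc, Chd, Brd, Yeats, Gatad, Sirt, Cbx, Ezh, Ing, Mbd, Prmt, Arid or Dnmt followed by a letter or digit. Symbols of this kind were held by 121 probes of 87 genes, and 55 probes of 49 genes were measured on enough arrays to be tested, which means 4 or more in both of the dye orientations. Over the whole array 8058 probes met that limit. The choice by prefix also takes in Chdh, which encodes choline dehydrogenase and is no chromatin regulator.

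RNA was hybridised to 15 arrays with 2 colours. RNA pooled from 4 wild-type brains was in one channel and RNA of 5 homozygous O377 brains in the other, with the mutant RNA in Cy5 on 7 arrays and in Cy3 on 8. Arrays are numbered 1 to 15 in accession order. Because the labels tie no array to a brain, each p-value reflects only how arrays vary, which can be technical. The wild-type pool is 1 control sample that shows no spread of its own. The mutant RNA carries the same label on every array, and the labels do not say whether the RNA of the 5 mutant brains was pooled. If it was, the values hold no spread between mutant brains either. Age, sex, strain background and brain region are not given in the sources used here.

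Each value is a log ratio, here taken as log2, and its direction is not stated. It was therefore split into 2 parts by limma. The dye-switching component is the difference between the mean with mutant RNA in Cy5 and the mean with mutant RNA in Cy3, divided by 2. It is the genotype difference, with positive values higher in the mutant, only if the ratio runs Cy5 over Cy3. The shared component is the mean of both orientation means, and it is the genotype difference if the ratio runs mutant over wild type. The other component then holds the dye bias of the probe. Results are therefore given as positive or negative, and a value is called where the adjusted p, by Benjamini-Hochberg over 8058 probes, is under 0.05.

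DNA in the nucleus is wrapped around histones, and enzymes add, remove and read chemical marks on histones and on DNA, while remodelling ATPases move or replace nucleosomes. Yeats4, also known as GAS41, has a YEATS domain that binds acylated histone H3, and it is a shared subunit of the TIP60 acetyltransferase and SRCAP remodelling complexes. Gatad2a, also known as p66-alpha, is a subunit of the NuRD complex, which joins histone deacetylases to a CHD remodeller. In brain, regulators of these families are known for roles in neuronal differentiation and in activity-dependent transcription.

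The promoters of the genes of both called probes are shown because these are the only members past the threshold. They come from RefSeq (GRCm38.p6), both lie on the minus strand, and each is the 250 bases before a start, written 5′ to 3′. Capitals mark the GC box (GGGCGG), the CCAAT box (spelled CCAAT) and the TATA box (spelled TATAAA) on either strand, and no marked motifs overlap. Yeats4 is at chr10:117224508-117224757 and Gatad2a at chr8:69996385-69996634.
Yeats4: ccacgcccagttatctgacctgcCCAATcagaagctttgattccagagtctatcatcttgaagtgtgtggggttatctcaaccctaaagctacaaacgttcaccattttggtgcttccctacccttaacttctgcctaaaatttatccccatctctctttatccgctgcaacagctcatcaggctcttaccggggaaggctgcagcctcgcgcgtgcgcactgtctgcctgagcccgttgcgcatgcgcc
Gatad2a: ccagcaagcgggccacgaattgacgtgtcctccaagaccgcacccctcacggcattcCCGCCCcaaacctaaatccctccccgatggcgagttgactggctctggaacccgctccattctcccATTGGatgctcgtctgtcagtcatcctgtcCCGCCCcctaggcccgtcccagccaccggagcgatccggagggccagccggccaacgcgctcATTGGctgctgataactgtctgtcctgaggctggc

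The Yeats4 promoter holds 11 CpG dinucleotides, 52.4% G and C, no GC box and 1 CCAAT. The Gatad2a promoter holds 18 CpG, 64% G and C, 2 GC boxes and 2 CCAAT, and a second listed start of Gatad2a, at chr8:69974384-69974633, has 20 CpG and 3 GC boxes with no CCAAT. Promoters were matched for 36 of the 49 genes. Of their 57 promoters, 75.4% hold a GC box, 42.1% a CCAAT and 5.26% a TATAAA, against 32.7%, 33.9% and 12.4% of all 32851 promoters in the table. Their median is 20 CpG dinucleotides, against 6 over all promoters. The table covers 27025 genes, whether tested on the arrays or not, and some genes count with several starts. Whether these contrasts are particular to the regulators among tested genes was not tested. The Yeats4 sequence thus lacks the GC box that most of the regulators' promoters hold. These are descriptions of letters in a window and show no binding.

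Between 7843 and 10515 of the 20205 probes had a value on each array, and between 43 and 55 of the 55 regulator probes did. The interquartile range of an array's log ratios ran from 0.386 to 0.892, and arrays 9 and 10 had the widest. Because a log ratio holds no level, the labelled tissue could not be checked against the level of its markers. Of 21 tested marker probes of neurons, glia, vessels, blood, dividing cells and lens, 1 was called in the dye-switching component, against 0.645% of all tested probes: Thy1, a neuronal surface protein, at -0.53 ± 0.11 (SE; limma adjusted p = 0.0276). The other tested neuronal markers were near 0 on either side, with Map2 at 0.09, Nefm at 0.02, Rbfox3 at 0.01 and Stmn2 at -0.04. Mbp, a myelin protein of oligodendrocytes, had -0.22 ± 0.09 (SE; limma adjusted p = 0.419) on one probe and -0.03 ± 0.08 on the other. With the direction of the ratio not stated, these values can be a genotype difference or dye bias. The part of cell makeup in the values below was not tested, and a change in cell number and a change in RNA per cell cannot be told apart. Crybb2 itself had a dye-switching component of -0.01 ± 0.07 and a shared component of -0.00067 ± 0.07 (SE), and the labels do not say whether the altered allele changes the amount of its RNA.

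Yeats4 was positive on every array with mutant RNA in Cy5 and negative on every array with it in Cy3. In Cy5 the log ratio was 0.35 at the lowest, 0.50 at the median and 1.58 at the highest of 7 arrays. In Cy3 it was -1.09 at the lowest, -0.77 at the median and -0.08 at the highest of 8 arrays. The orientations did not overlap, and the ranges were separated by the gap between arrays 5 and 4. Array 13 was the highest, well apart from array 1, the next, at 0.68.

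The orientation means of Yeats4 were 0.63 ± 0.43 (SD, n = 7) and -0.63 ± 0.37 (SD, n = 8). Its dye-switching component was 0.63 ± 0.10 (SE; limma adjusted p = 0.003), a 1.55-fold difference, with 15 of 15 arrays on that side. The shared component was 0.002 ± 0.10 (SE), so the mean log ratio changed sign with the dyes and kept its size. Because the orientations did not overlap, an exact two-sided permutation over arrays can only give its smallest p, 0.000311 with 6435 splits, which restates that observation. Without array 13 the component was 0.55 (limma adjusted p = 0.00206).

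Gatad2a showed the same sides with a smaller difference. With mutant RNA in Cy5 its log ratio was 0.17 at the lowest, 0.48 at the median and 0.61 at the highest of 6 arrays. With mutant RNA in Cy3 it was -0.37 at the lowest, -0.16 at the median and -0.03 at the highest of 7 arrays. The orientations did not overlap, and arrays 5 and 15 had no value for this probe. Array 2 was the lowest of the Cy5 arrays and arrays 3 and 4 were the highest of the Cy3 arrays.

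The orientation means of Gatad2a were 0.44 ± 0.15 (SD, n = 6) and -0.18 ± 0.13 (SD, n = 7). Its dye-switching component was 0.31 ± 0.06 (SE; limma adjusted p = 0.0169), a 1.24-fold difference, with 13 of 13 arrays on that side. As for Yeats4, the exact two-sided permutation p is fixed at its smallest value by the absence of overlap, 0.00117 with 1716 splits. Its shared component was 0.13 ± 0.06 (SE; limma adjusted p = 0.516) and was not called. Among the 55 tested regulator probes this one had the smallest residual spread, with an SD of 0.143 over arrays. By size of the component it ranked 425 of all 8058 probes, and by p it ranked 34. Yeats4 ranked 64 by size and 24 by p.

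**Figure D1:**
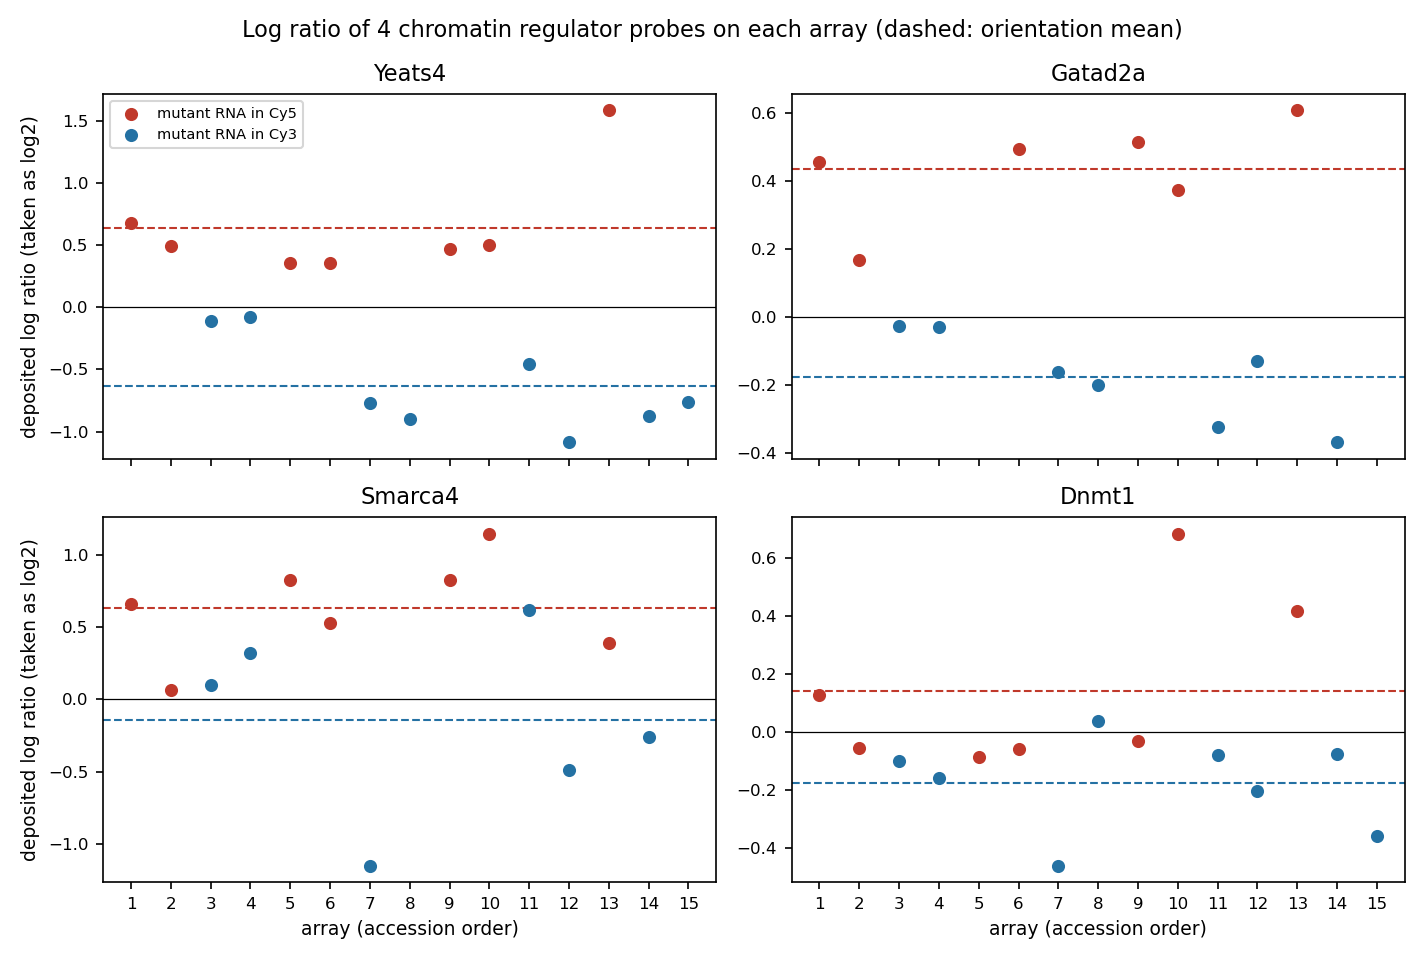
Log ratio (log2, vertical axis) of Yeats4, Gatad2a, Smarca4 and Dnmt1 on each of the 15 arrays, in accession order on the horizontal axis and coloured by the dye of the mutant RNA (red Cy5, blue Cy3), with dashed lines at the orientation means and a vertical scale of its own in each panel. The orientations are apart for Yeats4 and Gatad2a and overlap for Smarca4 and Dnmt1.

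Yeats4 and Gatad2a were the only regulator probes called in the dye-switching component, 2 of 55, against 0.645% of all tested probes. Both were on the positive side, where 0.335% of all tested probes were called. They were also the only regulator probes whose orientations did not overlap, against 0.906% of all tested probes. Because the members were chosen with earlier results of these data known, these shares are descriptions and test nothing about the group. In the shared component 0 of the 55 were called by limma, and the background there was 0% as well. At an unadjusted p under 0.05, 4 of the 55 passed in the dye-switching component, against a background of 9.57%, and 4 passed in the shared component, against 9.49%. The regulators' share of small p-values was 7.27% in either component, near that of the whole array, and is not read as a difference.

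The other members with an unadjusted p under 0.05 in the dye-switching component were Smarca4 and Dnmt1. Smarca4, also known as BRG1, is an ATPase of the BAF remodelling complex. Its log ratio in Cy5 ran from 0.06 through a median of 0.66 to 1.15 over 7 arrays. In Cy3 it ran from -1.15 through a median of -0.08 to 0.62 over 6 arrays. All Cy5 arrays were positive, 3 of the Cy3 arrays (3, 4 and 11) were positive too, and the orientations overlapped. The dye-switching component was 0.39 ± 0.13 (SE; limma adjusted p = 0.3), with 10 of 13 arrays on that side, and over the alternatives its adjusted p ran from 0.0791 to 0.748.

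Dnmt1, the enzyme that copies DNA methylation to the new strand after replication, ran from -0.09 through a median of -0.03 to 0.69 in Cy5. In Cy3 it ran from -0.46 through a median of -0.13 to 0.04. The upper end in Cy5 was array 10, and the orientations overlapped. The component was 0.16 ± 0.07 (SE; limma adjusted p = 0.461), with 10 of 15 arrays on that side.

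Within each run of 4 arrays in accession order, the last with 3, the difference between orientations was positive for all of Yeats4, Gatad2a, Smarca4 and Dnmt1. These 4 probes were picked by an unadjusted p under 0.05 over the same arrays, and all had positive components. The common sign of their runs follows largely from that choice and is no further support. The runs are only an order of accession, and the labels name no batch. Yeats4 had 0.34, 0.60, 0.63 and 1.20 in the runs of arrays 1 to 4, 5 to 8, 9 to 12 and 13 to 15. Gatad2a had 0.17, 0.34, 0.34 and 0.49 in the same runs. Both were lowest in the first run and highest in the last. In the last run the only Cy5 array was array 13, which stood apart for Yeats4, and Gatad2a had no value on array 15. With each run reduced to 1 value, an alternative chosen after seeing the data, Yeats4 kept 0.69 and Gatad2a 0.33, and the limma adjusted p was 0.463 and 0.62, so both calls were lost with 4 values.

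**Figure D2:**
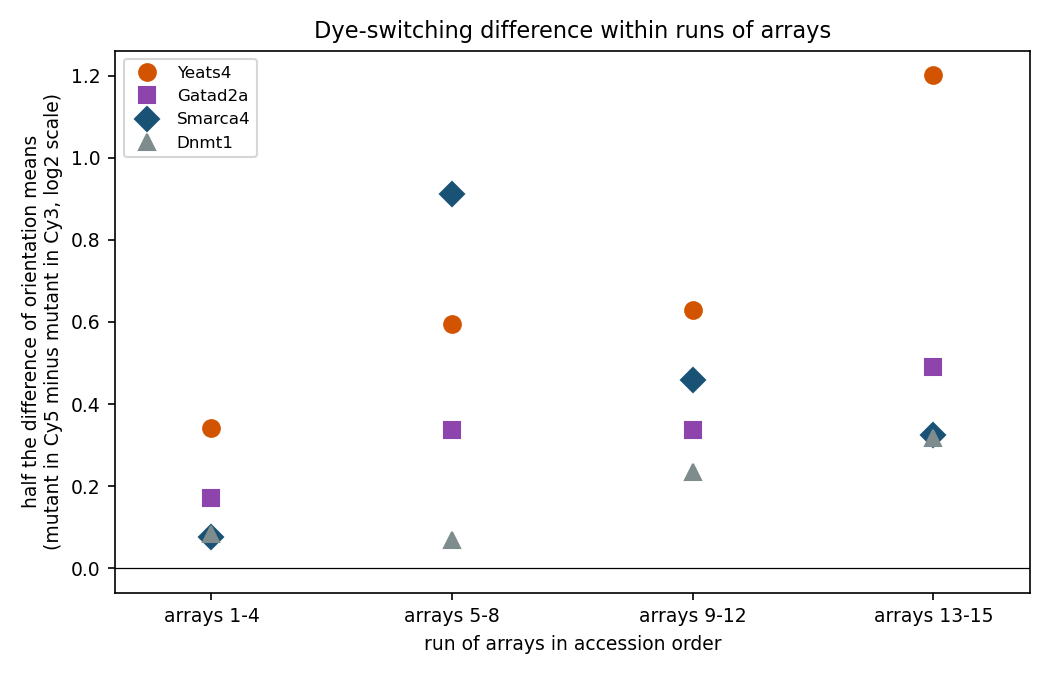
Dye-switching difference (log2 scale, vertical axis) of Yeats4, Gatad2a, Smarca4 and Dnmt1 within each run of arrays in accession order (horizontal axis). Each point is the difference between the mean of the Cy5 arrays and the mean of the Cy3 arrays of that run, divided by 2. All points lie above 0, for probes picked by a small p over the same arrays.

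Among readers of histone marks and methylated DNA, the relative of Yeats4 on the array was Yeats2, a subunit of the ATAC acetyltransferase complex. Its dye-switching component was 0.16 ± 0.13 (SE; limma adjusted p = 0.734), with array values from -1.55 to 0.83 and overlapping orientations, and it was 0.06 without array 4. The bromodomain proteins Brd3, Brd8 and Brd9, which bind acetylated histones, had 0.07, -0.03 and -0.02. Brd9 was among the least variable regulators, with a residual SD of 0.174, and its 95% interval of -0.14 to 0.10 leaves out a difference of the size of Yeats4. Brd8, a subunit of TIP60 like Yeats4, had an interval of -0.19 to 0.13.

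The chromobox proteins Cbx2 and Cbx7, which belong to Polycomb complexes, had -0.17 ± 0.19 (0.03 without array 9) and 0.06 ± 0.06 (SE), and Cbx5, the heterochromatin protein HP1-alpha, had 0.04 ± 0.08. Methyl-CpG binding proteins Mbd1 and Mbd2 had -0.09 and 0.09, and Mbd6, a subunit of a deubiquitinase complex, had 0.18 ± 0.17. The ING proteins bind methylated histone H3 through a PHD finger, and their 4 probes lay between -0.11 and 0.05. None of these was called by limma in either component. Of the 15 reader probes, 9 were positive and 6 negative, with a median of 0.04.

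Of the other GATA zinc finger proteins, Gatad2b, or p66-beta, which can take the place of Gatad2a in NuRD, had a dye-switching component of 0.12 ± 0.11 (SE; limma adjusted p = 0.774). Its array values ran from -0.77 to 0.66 in Cy5 and from -0.68 to 0.14 in Cy3. The Cy3 range lay wholly within the Cy5 range. Gatad1 had 0.01 ± 0.12 (SE), or 0.13 without array 13, and the 95% intervals were -0.10 to 0.34 for Gatad2b and -0.24 to 0.27 for Gatad1. The interval of Gatad2b includes the value of Gatad2a, and the difference between the pair was not tested.

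Histone deacetylases remove acetyl groups, and 4 of the 7 on the array were measured on enough arrays. Hdac1 and Hdac2, the catalytic subunits of NuRD, had dye-switching components of -0.001 ± 0.14 and 0.04 ± 0.09 (SE). Hdac5, a class II enzyme, had -0.09 ± 0.11, and Hdac11, the class IV enzyme, had 0.12 ± 0.12 with a shared component of -0.21 ± 0.12. None was called. The 95% interval of Hdac1, from -0.30 to 0.29, is wide beside that of Brd9, and its array values ran from -0.69 to 1.25.

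Histone methyltransferases gave 8 tested probes of 7 genes, 4 positive and 4 negative. Kmt2a, which methylates histone H3 at active genes and is also known as MLL1, had the largest size among them, -0.53 ± 0.50 (SE), and the largest shared component of any regulator, 0.67 ± 0.50. Array 7 gave 5.46, and the other 9 values lay between -1.12 and 0.83, so only 2 of 10 arrays were on the side of the dye-switching component. Without array 7 the components were 0.18 and -0.04. Its residual SD of 1.82 was the largest among the regulators. The 2 probes of Kmt2e had 0.03 and 0.04, Kmt2d had 0.07, and Kmt5a, which places a single methyl group on histone H4, had 0.002 with a residual SD of 0.162.

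The SET domain proteins Setd1b, Setd4 and Setd7 had -0.13, -0.11 and -0.01, and Setd7 had a shared component of 0.15 ± 0.09 (SE; limma adjusted p = 0.616). The 95% interval of each SET domain protein included 0. The arginine methyltransferases Prmt3, Prmt5 and Prmt8, the last known for its expression in brain, had 0.05, 0.08 and 0.13. Their SEs were 0.08, 0.09 and 0.12.

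Among demethylases, Kdm4d, which removes methyl groups from histone H3, had 0.14 ± 0.07 (SE; limma unadjusted p = 0.054, adjusted p = 0.532 in the fit across all probes). Its array values ran from -0.09 to 0.73 in Cy5 and from -0.16 to 0.06 in Cy3, and 10 of 13 arrays were on the side of the component. The orientations overlapped, with the highest values in Cy5. Kdm4b, Kdm5a and Kdm5b had -0.03, 0.008 and -0.07, all within 1 SE of 0.

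Remodelling ATPases and their subunits, with the tested Arid genes grouped here by prefix only, gave 13 tested probes. Of these 7 were positive and 6 negative, with a median of 0.008. None of the tested Arid genes is in the list of BAF genes used below. Beside Smarca4, the alternative BAF ATPase Smarca2 had -0.05 ± 0.07 (SE), and Smarcd1, a BAF subunit, had -0.32 ± 0.17 (SE; limma adjusted p = 0.608). The values of Smarcd1 ran from -0.99 to 0.34 in Cy5 and from -0.41 to 1.23 in Cy3, over 5 arrays each, and 6 of 10 arrays were on the side of the component. The BAF ATPases and subunits thus did not share 1 sign. The remodellers Chd1, Chd2 and Chd3 lay between -0.06 and 0.07 over their 5 probes. Arid5a and Arid5b, AT-rich DNA binding proteins, had 0.06 and 0.03, and Chdh had -0.11.

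The DNA methyltransferases had the largest median size of the groups by role, 0.23 over 4 probes. Dnmt3a, which adds methyl groups to unmethylated DNA and is active in neurons, had -0.24 ± 0.18 on the first probe (-0.10 without array 3) and 0.23 ± 0.18 (SE) on the second. Dnmt3l, a cofactor of Dnmt3a known mainly from germ cells, had -0.54 ± 0.42 over 8 arrays, with values from -3.60 on array 13 to 1.32 on array 4. Its other Cy5 values lay between -0.33 and 0.44, so the size of its components rests largely on array 13. The residual SDs were 1.46 for Dnmt3l and 0.736 for the first Dnmt3a probe, the largest among the regulators after Kmt2a.

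**Figure D3:**
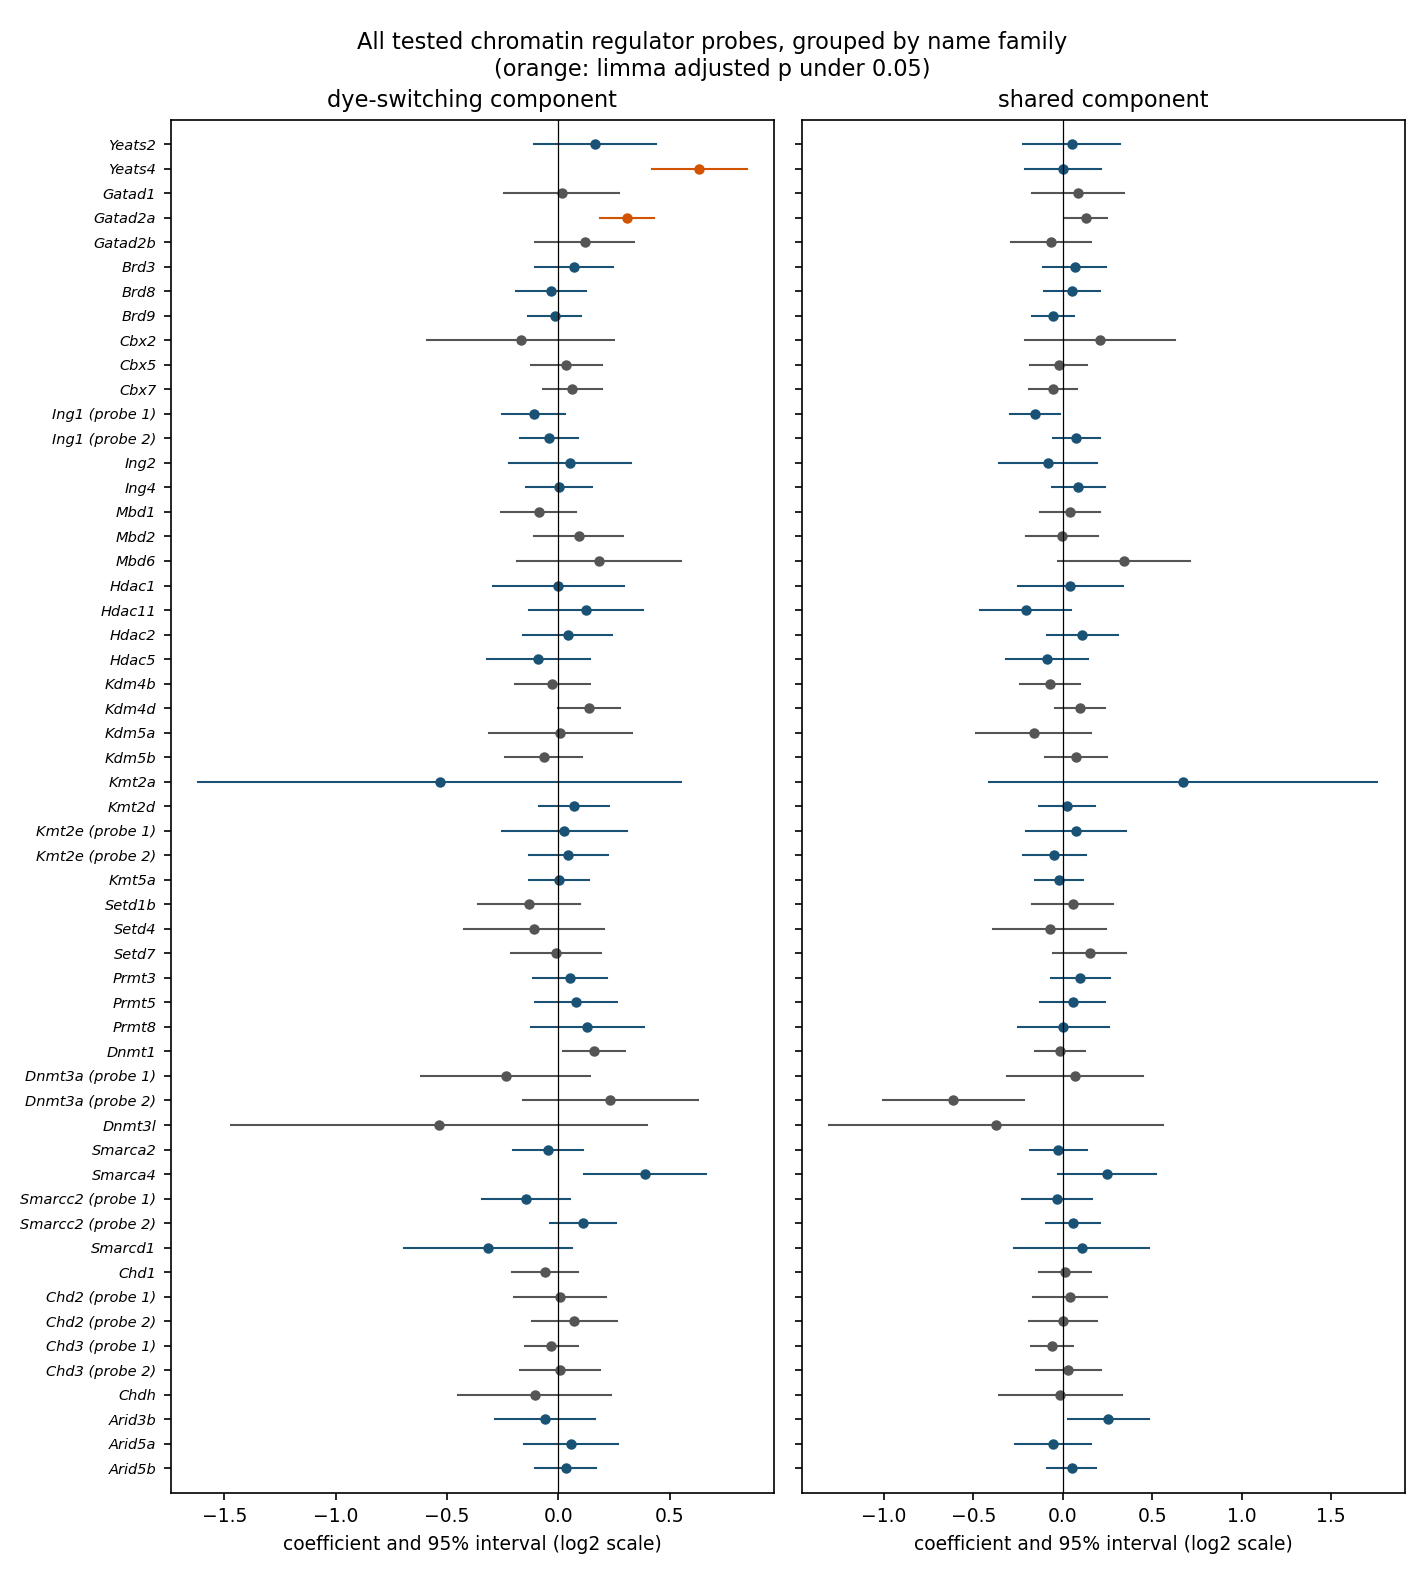
Dye-switching component (left) and shared component (right) with 95% intervals (lines, log2 scale on the horizontal axes) for each of the 55 regulator probes, by family with blue and grey alternating. Orange marks the called probes, Yeats4 and Gatad2a, and 47 of the 55 dye-switching values have a size under 0.2.

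Across the 55 probes the dye-switching component had a median of 0.008 and a median size of 0.07, against 0.007 and 0.08 over all tested probes. Positive values were 32 of 55, or 58.2%, against 52.8% of all tested probes, and the sign of 4 turned when arrays were scaled to 1 spread. A size under 0.2 was found for 47 of the 55, or 85.5%, against 86.2% of all tested probes. The residual SD had a median of 0.341 against 0.337. As a group the regulators were thus centred and spread much like the whole array. For 33 of the 55 probes the 95% interval lay within 0.3 of 0, against 4506 of the 8058 tested probes. A difference of the size of Yeats4 lay outside those 33 intervals. For the remaining 22 the interval reached past that limit, though some of these also left out the value of Yeats4, as for Hdac5 (-0.32 to 0.14).

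In the shared component the regulators had a median of 0.03, against -0.005 over all tested probes. Positive values were 33 of 55, or 60%, against 48.4% of all tested probes, and 22 were negative. With scaling 5 signs turned, and with centring 2. The members with an unadjusted p under 0.05 were Gatad2a, given above, the second probe of Dnmt3a, the first of Ing1, and Arid3b. Dnmt3a had -0.61 ± 0.18 (SE; limma adjusted p = 0.382), with values from -1.34 to 0.22 in Cy5 over 4 arrays and from -1.67 to 0.14 in Cy3 over 6. Of its 10 arrays 8 were negative, and the orientations overlapped. The first Dnmt3a probe, on 14 arrays, had a shared component of 0.07 ± 0.18 (SE; -0.07 without array 3), and the average of both probes had -0.21. With robust regression the second probe was called, at -0.55 (limma adjusted p = 0.0416), as were 107 of all tested probes, where the main fit called 0.

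Arid3b, an AT-rich DNA binding protein, had a shared component of 0.26 ± 0.10 (SE; limma adjusted p = 0.491), with 9 of 12 arrays positive. The first probe of Ing1, a reader found in a SIN3 deacetylase complex, had -0.15 ± 0.07 (SE; limma adjusted p = 0.51), with 12 of 15 arrays negative. Array 10 was its lowest, at -0.97, and without it the component was -0.10. Beside these and Kmt2a and Hdac11, given above, the 10 largest sizes were those of Dnmt3l, -0.37 ± 0.42, Mbd6, 0.34 ± 0.17, Smarca4, 0.25 ± 0.13, Cbx2, 0.21 ± 0.19, and Kdm5a, -0.16 ± 0.15 (SE). None of these 5 had an unadjusted p under 0.05 by limma. The shared component of Kdm5a was -0.02 without array 8, and that of Cbx2 was 0.41 without array 9.

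**Figure D4:**
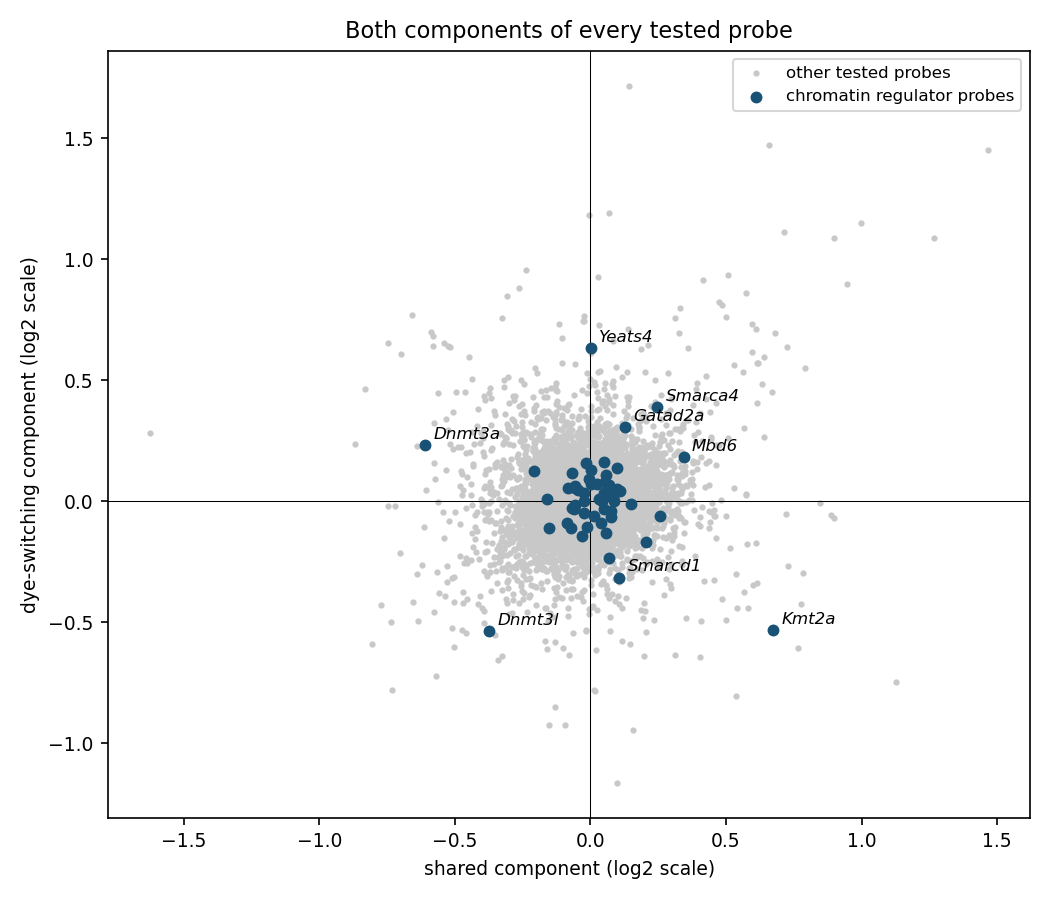
Dye-switching component (vertical axis) against shared component (horizontal axis), both on the log2 scale, for all tested probes in grey and the 55 regulator probes in colour. Yeats4 is the highest regulator probe, with a shared component near 0, and Gatad2a lies at 0.31 with a shared component of 0.13.

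Probes of 1 gene could be set beside each other for 6 genes, while 43 genes, Yeats4 and Gatad2a among them, had 1 tested probe each. The sign of the dye-switching component differed between the probes of Chd3, Dnmt3a and Smarcc2, and that of the shared component differed in 5 of the 6 genes. Smarcc2, a BAF core subunit, had -0.15 ± 0.09 and 0.11 ± 0.07 (SE). Chd3, a NuRD remodeller, had -0.03 and 0.008, and Chd2 had 0.008 and 0.07. Ing1 had -0.11 and -0.04 in the dye-switching component but -0.15 and 0.08 in the shared component. So no second probe was there to set beside either called probe.

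The filter left out 66 regulator probes, of which 22 had no value on any array and 44 had some. No value on any array was found for 18.2% of regulator probes and 19.9% of all probes with 1 symbol. Members measured on 4 arrays of an orientation, the fewest kept, were Cbx2, Dnmt3l, Mbd6, Setd7, Kmt2a and the second Dnmt3a probe. Just outside, with 3 arrays in an orientation, were further probes of Brd3 and Cbx5, and probes of Chd1l and Kdm5c, with differences between orientations, divided by 2, of 0.07, 0.64, 0.10 and 0.35. The probe of Cbx5 just outside spanned -0.41 to 2.84 over 3 Cy5 arrays, while the tested probe of that gene had 0.04. Sirt3, Sirt4 and Sirt6, which are NAD-dependent deacetylases, and Ezh1 and Ezh2, the Polycomb methyltransferases, had no probe that passed, and neither did Hdac3, Chd4, Mbd3 or Smarca5. In all, 38 genes are not tested here.

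The partners of both called genes were taken from lists of complexes. NuRD had 8 of 15 genes tested, on 9 probes with a median dye-switching component of 0.008, and Gatad2a was the only one called. Beside it, Rbbp4, a histone-binding subunit, had -0.10 ± 0.06 (SE), with a shared component of -0.13 ± 0.06. The NuA4/TIP60 and SRCAP complexes had 12 of 25 genes tested, with a median of 0.02, and Yeats4 was the only one called. Morf4l1, a chromodomain subunit of TIP60, was on the other side at -0.28 ± 0.06 (SE; limma adjusted p = 0.051), just short of the threshold. Its shared component was -0.20 ± 0.06 (SE; limma adjusted p = 0.382). Vps72, Meaf6 and Srcap, further subunits, had shared components of -0.20 ± 0.06, -0.15 ± 0.06 and 0.37 ± 0.15 (SE), and none was called.

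Of the other lists, BAF had 10 of 26 genes tested and a median of -0.01, and Polycomb had 7 of 29 genes and a median of 0.06, with no call. Yaf2, a Polycomb subunit, had 0.50 ± 0.22 (SE; limma adjusted p = 0.507). Acetyltransferases and their co-activators had 6 of 16 genes tested with a median of 0.001. Crebbp, or CBP, an acetyltransferase and co-activator of CREB, had 0.60 ± 0.17 (SE; limma adjusted p = 0.237) over 9 arrays and a shared component of the opposite sign, -0.45 ± 0.17 (SE; limma adjusted p = 0.481), and neither was called. Ncoa1, a co-activator, had a shared component of -0.25 ± 0.09 on 1 of its probes.

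Co-repressors that work with deacetylases had 6 of 15 genes tested, with a median of -0.16 and 1 positive probe. Sap18 and Rcor1, of the SIN3 and CoREST complexes, had -0.16 ± 0.07 and -0.23 ± 0.10 (SE; limma adjusted p = 0.462 and 0.507). Other histone methylation enzymes had 7 of 29 genes tested with a median of -0.002. In that list Suv39h2, a heterochromatin methyltransferase, had a shared component of -0.19 ± 0.05 and Dot1l, which methylates the core of histone H3, had 0.18 ± 0.07 (SE). Remodellers and histone chaperones outside the prefixes had 10 of 30 genes tested with a median of -0.04, and Nap1l4, a chaperone, had a shared component of -0.14 ± 0.06 (SE). Readers and erasers of DNA methylation had only Zbtb4 tested, at 0.04.

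Over the 50 genes of these lists outside the prefixes, on 55 probes, limma called 0 in either component, and 5 probes (9.09%) had an unadjusted p under 0.05 in the dye-switching component and 10 (18.2%) in the shared component. The backgrounds of 9.57% and 9.49% given above apply to the same tests. No list outside the prefixes added a called probe to Yeats4 and Gatad2a.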

How the data were processed

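Each column deposited by the authors holds log ratios of 1 array, taken as log2, with a median near 0. The base is not stated. It is inferred, since the largest size, 12.33, exceeds 11.09, the natural log of the largest ratio of a scanner with 16 bits. This assumes that processing did not widen the ratios, and the fold differences given above rest on it. Normalization, filtering and direction are not given in the sources used here. Probes were named by the platform annotation, with symbols updated to RefSeq: 11723 had 1 symbol, 806 several and 7676 none. One probe of Kmt2d was named through a synonym. Probes with at least 4 values in each dye orientation were fitted with limma 3.58.1 in R 4.3.3 (lmFit with dye orientation, eBayes), with Benjamini-Hochberg adjustment over 8058 probes, and the code was tested on simulated data. Missing values were dropped, not imputed. The array numbers pair no samples. Genes are named where they are called, have an unadjusted p under 0.05, are among the 10 largest sizes in either component or the extremes of residual SD, have several probes, or lie at the edge of the filter; members are otherwise given by family. The members and lists were chosen with earlier results of these data known. Alternatives were median centring, scaling, other filters, array weights, robust fits, limited values, averaged probes, an ordinary test, no dye term, each array left out, arrays 9 and 10 left out, and runs of 4 arrays as a block or reduced to 1 value.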

Additional observations from a re-analysis of the deposited data

Results flagged for a closer look

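For each regulator probe and dye orientation, the highest or lowest array was set against the rest of its orientation by Dixon's 95% limit. An array lay far from the others in 17 of 110 sets, or 15.5%, where about 1 in 20 is met by chance. Arrays 9 and 10, those with the widest spread of log ratios, held 3 each, and arrays 7, 11 and 13 held 2 each.

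With mutant RNA in Cy5, array 13 gave 1.58 for Yeats4, with the next at 0.68, and -1.25 for Gatad1, with the next at 0.08. Without array 13 Yeats4 stayed called, as given above. Array 9 gave -1.19 for Cbx2, 1.15 for Chd2 and 0.84 for Mbd2. Array 10 gave 0.88 for Cbx5, -0.97 for Ing1 and 1.01 for Prmt8. Array 1 gave -0.86 for Ing2.

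With mutant RNA in Cy3, array 7 gave 5.46 for Kmt2a, with the next at -0.09, and 1.65 for Chdh. Array 11 gave 0.31 for Cbx7 and -0.46 for Prmt3. Array 3 gave 1.97 for Dnmt3a, array 4 gave -1.55 for Yeats2, array 8 gave -2.09 for Kdm5a and array 15 gave 0.52 for Mbd1. Leaving out the array that stood apart turned the sign of the dye-switching component of Cbx2 to 0.03, of Cbx5 to -0.04, of Chd2 to -0.02, of Chdh to 0.003, of Kdm5a to -0.13 and of Kmt2a to 0.18. The component kept its sign but moved by over 1.5 times for Dnmt3a (-0.10), Gatad1 (0.13), Ing1 (-0.05), Ing2 (0.14), Mbd2 (0.03), Prmt3 (0.008), Prmt8 (0.06) and Yeats2 (0.06). None of these was called, and why these arrays stood apart was not tested.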

How the results depend on the processing

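Yeats4 and Gatad2a were called under 28 of 29 alternatives, with adjusted p in limma between 0.00206 and 0.00934 for Yeats4 and between 0.0127 and 0.0489 for Gatad2a as each array was left out. With 1 value per run of 4 arrays, which leaves 4 values, the calls fell from 2 to 0 of the regulators and from 52 to 2 of all probes, Yeats4 having 0.69 and Gatad2a 0.33. Robust regression raised the calls of all probes from 52 to 204 in the dye-switching component and from 0 to 107 in the shared component. It called 1 regulator (Dnmt3a, -0.55) in the shared component, and 7 regulators had an unadjusted p under 0.05 in each. The count of 4 regulators in the shared component at that p was 2 with no dye term, with at least 6 arrays of each orientation and with averaged probes. Leaving out 1 array gave between 1 (array 12) and 5; it was 2 without array 11 or 14. The causes were not tested. No other call was made or lost among the regulators. The sign of 4 regulators turned with scaling in the dye-switching component, and 5 in the shared component, 2 with centring. No paired analysis was possible because the labels' numbers name arrays and tie none to an animal or to another array. The number of arrays, 4 to 8 per orientation, limits the precision.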
